A study of Mus musculus with 8 samples.

Results

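Medulloblastomas of adult mice were compared with granule neuron precursors (GNPs) of both precursor genotypes together, by the sample labels, and the comparison took in 8 of the 8 arrays of the series. The tumour group held 4 medulloblastomas from mice with 3 alterations: a conditional FLAG-tagged Gli1 at the Rosa locus (RosaGli1-FLAG c/c), Math1-Cre, which switches it on, and 1 targeted Ptc allele (Ptc+/-). The precursor group held 4 samples taken at postnatal day 8, 2 of them from RosaGli1-FLAG c/c mice crossed with Math1Cre (Gli1-FLAG GNPs) and 2 from Ptc+/- mice (Ptc+/- GNPs). Math1 (Atoh1) is active in the granule lineage, so the transgene is driven in that lineage. Tumours thus differed from each GNP genotype in the second alteration, in age, and in being tumour tissue and not purified cells, and these differences cannot be told apart from the disease. The labels call the samples biological replicates, but separate animals are not stated, so a p-value covers only the spread seen among these arrays, some of which may be technical. RNA was read on whole-transcript expression arrays, and a level below is log2(quantile-normalized intensity + 1). A difference is a tumour mean minus the mean of the 2 GNP group means on that scale. Rows with an adjusted p below 0.05 (limma, two-sided, Benjamini-Hochberg over 16317 rows) are said to have risen or fallen.

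GNPs are the dividing cells of the outer cerebellum that give rise to granule neurons, and Sonic hedgehog from Purkinje cells keeps them in cycle. The ligand binds the receptor Patched (Ptch1, called Ptc in the labels), which otherwise holds the membrane protein Smoothened inactive, and signal from Smoothened turns on Gli transcription factors at the primary cilium. Loss of Patched function or excess Gli1 keeps the pathway on, and mice with such changes develop medulloblastoma from the granule lineage.

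Array medians of the deposited intensity ranged from 109 to 310.0 before normalization. The median SD between replicates was 0.299 in tumours, against 0.0899 for the Gli1-FLAG and 0.14 for the Ptc+/- precursors, so tumours varied most among themselves. The Y-linked genes Eif2s3y and Kdm5d were at or below 4.55 on both Gli1-FLAG GNP arrays and in medulloblastoma 3 and above 7.3 on the other arrays, and 4.55 served as a guide to the level of a silent gene. Y-linked signal thus went with GNP genotype, and the part of sex in gaps between the GNP genotypes cannot be told apart from that of genotype. Tumours and GNPs were not balanced in that signal either. The part of sex in differences of tumours from GNPs, those of X-linked genes included, was not tested. Of the genes on the GNP list some were bright on all arrays and others were dim in the tumours. The zinc finger gene Zic1 was at 11.46 to 11.71 in GNPs and 11.32 to 11.99 in tumours, and the granule lineage gene Neurod1 was at 11.85 to 12.12 and 10.33 to 11.56, whereas Eomes and Tfap2a, given below, were under the median of all rows, 7.50, in every tumour. The GNP arrays also carried signal of other cell types, such as the astrocyte water channel Aqp4 (9.69 to 10.70) and the endothelial receptor Kdr (8.60 to 10.03). In such bulk RNA, fewer cells of a type and less RNA per cell cannot be told apart.

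Of 16317 rows, 3812 passed the threshold (23.4%), 1751 of them higher in tumours (10.7%) and 2061 lower (12.6%). With a minimum difference of 2-fold as well, 549 rose (3.36%) and 685 fell (4.2%). All 4 tumours lay above all 4 GNP arrays in 2391 rows (14.7%) and below them in 2699 (16.5%), together 31.2%. Among 14351 genes, each taken at its brightest row, 1567 rose (10.9%) and 1873 fell (13.1%), and the median difference was 0.01. The count of each gene list below is to be read beside these shares. At an unadjusted limma p below 0.05 there were 6261 of the 16317 rows, in either direction. The same fit called 2687 rows for tumours against Ptc+/- GNPs alone (16.5%; 7.54% up and 8.92% down, or 3.55% and 4.12% at 2-fold) and 1677 against Gli1-FLAG GNPs alone (10.3%; 4.65% up and 5.63% down, or 2.43% and 2.97% at 2-fold), comparisons that share the tumour arrays. The difference between the GNP genotypes, which is the difference between those comparisons, gave 0 calls in limma, with 525 rows at an unadjusted p below 0.05 and a smallest adjusted p of 0.0717. Other settings of that fit gave 0 to 4. Leaving out 1 GNP array lowered the count for tumours against all GNPs from 3812 to 1300 without Gli1-FLAG GNP 1, 1643 without Gli1-FLAG GNP 2, 1782 without Ptc+/- GNP 1 and 2303 without Ptc+/- GNP 2. Of 185 genes named by rule, 139 passed, 96 of these did so without each array in turn, and for those named below that did not, the arrays concerned are given beside them.

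The largest rise was that of Sema3e, a secreted semaphorin that guides axons and vessels through plexin D1. Sema3e was at 4.40, 4.81, 4.39 and 4.52 in the GNPs, about the level of the silent Y-linked genes, and at 9.25, 8.70, 9.86 and 9.63 in the tumours (difference 4.83, SE 0.26, 28.4-fold, adjusted p = 0.000231). The groups were far apart, and the difference was 4.90 from Ptc+/- GNPs and 4.75 from Gli1-FLAG GNPs. Prmt8, a protein arginine methyltransferase of neurons that sits at the plasma membrane, was at 5.40 and 5.14 with the Gli1-FLAG genotype, 7.46 and 7.62 with the Ptc+/- genotype, and 9.91, 9.93, 11.13 and 10.30 in tumours (3.91, SE 0.28, adjusted p = 0.000494). Its difference was 2.78 from Ptc+/- GNPs and 5.05 from Gli1-FLAG GNPs. That gap between genotypes had an unadjusted p of 0.000573 and an adjusted p of 1. Smoc1, a secreted calcium-binding matrix protein, was at 6.35 to 6.59 in GNPs and 9.71 to 10.18 in tumours (3.53, SE 0.14, adjusted p = 0.000149).

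Other large rises included genes known from neurons. Of 26 synapse and ion channel genes as a list, however, 1 rose and 2 fell, against 10.9% and 13.1% of all genes. Th, the rate-limiting enzyme of catecholamine synthesis, was at 4.64 to 4.99 in GNPs and at 8.998, 8.67, 8.10 and 7.74 in tumours (3.50, SE 0.28). Nptx1, a pentraxin secreted at excitatory synapses, rose by 3.23, the synaptic vesicle protein gene Rph3a by 2.91 and the sodium leak channel gene Nalcn by 2.93. Faim2, a neuronal inhibitor of Fas-driven cell death, was at 5.38 to 5.92 in GNPs and 9.87, 11.60, 7.52 and 7.71 in tumours (3.52, SE 0.87, adjusted p = 0.0271). All tumours were above all GNPs, medulloblastoma 2 by the most. The Faim2 call was lost without either Gli1-FLAG GNP, either Ptc+/- GNP or medulloblastoma 1 (adjusted p up to 0.0845).

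The locus of the tumour suppressors p16Ink4a and p19Arf, Cdkn2a, was at 4.28, 5.28, 5.15 and 5.27 in GNPs and at 8.08, 7.33, 9.65 and 8.76 in tumours (3.46, SE 0.49, 11-fold, adjusted p = 0.00458). Its neighbour Cdkn2b, which encodes p15Ink4b, was at 7.34 to 7.47 in GNPs and 8.80 to 8.84 in tumours (1.42, SE 0.10, adjusted p = 0.000494). Both inhibitors were thus higher in every tumour than in every GNP sample. The LIM-only cofactor gene Lmo1 rose by 3.37, the ephrin receptor gene Epha8 by 3.05 and Mab21l2, a regulator of eye and body development, by 3.01. Rbp4, the plasma carrier of retinol, rose by 3.17, and Tecta, whose product is a matrix protein of the inner ear, by 3.13. Ifitm10 rose by 2.89. The 10 lowest p-values added Pdgfa, a ligand of the PDGF receptors, at 6.78 to 7.48 in GNPs and 9.85 to 10.12 in tumours (2.87, SE 0.13, adjusted p = 0.000152), and the ligand gene Wnt4 (2.44, SE 0.13).

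**Figure D1:**
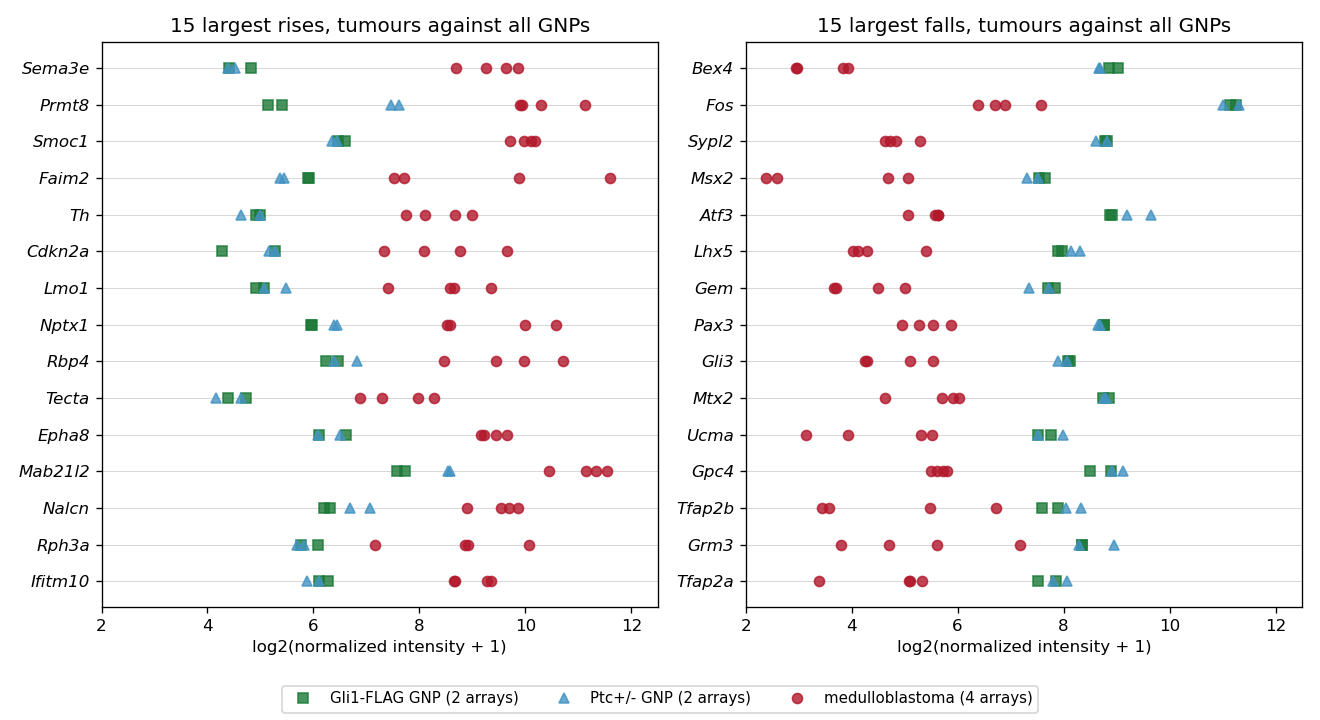
Levels, log2(normalized intensity + 1), of the 15 genes with the largest rise (left) and the 15 with the largest fall (right) on each array, with Gli1-FLAG GNPs as squares, Ptc+/- GNPs as triangles and medulloblastomas as circles. Genes were chosen for having no overlap between tumours and GNPs, so the gap is part of the choice; Prmt8 and Mab21l2 are the rises with the clearest gap between GNP genotypes.

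The largest fall was that of Bex4, an X-linked gene of the brain-expressed Bex family. Bex4 was at 9.03, 8.86, 8.69 and 8.67 in the GNPs and at 2.98, 3.84, 3.93 and 2.95 in the tumours (-5.39, SE 0.26, 41.9-fold lower, adjusted p = 0.000169). All 4 tumours were below the level of silent Y-linked genes, so the size of the fold rests on dim signal. Sypl2, a synaptophysin-like membrane protein, fell by 3.89, and Mtx2, a subunit of the protein import machinery of mitochondria, by 3.23.

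Other large falls included transcription factor genes. Of 23 genes on the list of patterning transcription factors 4 fell and 6 rose, so the genes named next were picked by size. The paired-box gene Pax3 was at 8.64 to 8.75 in GNPs and at 5.28, 5.54, 4.95 and 5.88 in tumours (-3.30, SE 0.20, adjusted p = 0.00029). The LIM homeobox gene Lhx5 fell by 3.62, Msx2, a homeobox target of BMP signals, by 3.83, and the AP-2 genes Tfap2b and Tfap2a by 3.16 and 3.09. The Tfap2b call was lost without any 1 of the 4 GNP arrays (adjusted p up to 0.0734). Eomes, the T-box gene of the unipolar brush cell lineage, was at 8.65 to 8.93 in GNPs and 5.84 to 6.32 in tumours (-2.70, SE 0.15). Gpc4, a cell-surface heparan sulphate proteoglycan, fell by 3.19 and Ucma, known from cartilage matrix, by 3.22. The metabotropic glutamate receptor gene Grm3 differed by -3.15, and its call was lost without either Gli1-FLAG GNP or Ptc+/- GNP 1 (adjusted p up to 0.0589). Fzd8, a Wnt receptor, fell by 2.92.

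Among the genes of hedgehog signalling, the transcriptional targets and the signal relay moved by modest amounts while the repressor Gli3 fell strongly. Gli1, both target and effector of the pathway, was at 10.08 and 10.19 in the precursors with the transgene, 9.24 and 9.38 in those of Ptc+/- mice and 10.58, 10.42, 10.52 and 10.90 in tumours (0.88, SE 0.14, 1.84-fold, adjusted p = 0.00658). The tumours lay above both genotypes, by 1.29 over Ptc+/- GNPs and 0.47 over Gli1-FLAG GNPs. The adjusted p above belongs to the comparison with both genotypes together, not to that with either alone. The genotype difference of 0.83 had an unadjusted p of 0.00358 and an adjusted p of 1. It is not known here if these probes also detect the FLAG-tagged RNA. Ptch1 was at 9.98 to 10.12 in GNPs and at 9.78, 9.85, 10.50 and 10.38 in tumours (0.09, SE 0.19, adjusted p = 0.754), so tumours lay on both sides of the GNPs, and as the probe positions are not known here this does not check the targeted allele. Of 14 measured target genes 4 rose and 0 fell, against 10.9% and 13.1% of all genes, with a median difference of 0.34. Besides Gli1 these were the cyclin gene Ccnd1 (1.34, SE 0.16), the oncogene Mycn (0.76, SE 0.13) and the secreted Wnt antagonist gene Sfrp1 (0.81, SE 0.19). The Sfrp1 call was lost without any 1 GNP array or medulloblastoma 1 (adjusted p up to 0.0795). Ccnd2 (0.13, SE 0.10) and the hedgehog-binding inhibitor gene Hhip (0.46, SE 0.46) did not pass.

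Gli3, which is processed to a repressor when the pathway is off, was at 8.08, 8.12, 7.90 and 8.07 in GNPs and at 5.09, 5.54, 4.25 and 4.29 in tumours (-3.25, SE 0.30, 9.52-fold lower, adjusted p = 0.0013). No tumour came near a GNP sample, and medulloblastomas 3 and 4 were at the level of silent genes. The signal transducer Smo was at 9.23 to 9.85 in GNPs and 10.28 to 10.57 in tumours (0.94, SE 0.13), and the ligand co-receptor gene Boc was at 9.36 to 9.58 and 10.01 to 10.64 (0.95, SE 0.16). Of 14 measured components 3 rose and 4 fell, against 10.9% and 13.1% of all genes. The falls were Gli3, the kinase gene Stk36 (-1.04) and the intraflagellar transport genes Ift88 (-0.86) and Ift80 (-0.56), and Arrb2, an arrestin that binds Smoothened, was the other rise (0.70). The median of the components was 0.04, or -0.07 with arrays centred on their medians. Smo lies on mouse chromosome 6, as do Prmt8 and Atoh1, genes of that chromosome as a whole were higher in tumours, as described below.

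Granule lineage genes parted into a few that rose and more that fell. Atoh1, the basic helix-loop-helix gene that specifies GNPs, was at 9.17, 9.03, 9.43 and 9.41 in GNPs and 11.99, 11.59, 11.63 and 10.84 in tumours (2.25, SE 0.24, 4.76-fold, adjusted p = 0.00198), and a second row of the gene gave 2.35. Barhl1, a homeobox gene downstream of Atoh1, was at 10.33 to 10.61 and 11.02 to 11.55 (0.89, SE 0.16). Of 18 measured genes of the GNP list these 2 rose and 9 fell, against 10.9% and 13.1% of all genes. The median of the list was -0.45, and the list also holds Eomes, a gene of the unipolar brush cell lineage. Leaving out 1 array left 3 to 9 falls, with 3 without either Gli1-FLAG GNP or Ptc+/- GNP 2 and 4 without Ptc+/- GNP 1, and with arrays centred on their medians 7 fell. The falls included Pax6 (-1.31) and Neurod1 (-0.97) beside the AP-2 genes and Eomes, whereas Zic1 differed by -0.01 (SE 0.16).

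Genes of neuronal differentiation and migration fell more often than they rose, but not to a like extent in all tumours. Of 22 measured, 0 rose and 9 fell (median -0.47), against 10.9% and 13.1% of all genes. Their mean level was 10.18 to 10.24 in GNPs and 9.64, 10.14, 10.17 and 9.34 in medulloblastomas 1 to 4. Medulloblastomas 2 and 3 thus lay close to the GNPs. At an unadjusted p below 0.05 limma gave 0 rises and 11 falls. The falls came to 3 without either Gli1-FLAG GNP, 4 without either Ptc+/- GNP, 6 without medulloblastoma 1 or 4, and 7 to 11 without medulloblastoma 2 or 3. Without medulloblastoma 4, 2 genes also rose. Stmn2, a microtubule regulator of growing axons, was at 11.04 to 11.27 in GNPs and 10.17 to 10.65 in tumours (-0.82, SE 0.14), and the growth cone gene Gap43 fell by 1.01. Elavl2, an RNA-binding protein of early neurons, fell by 1.10. The adhesion gene Cntn2, which marks GNPs leaving the cycle, differed by -1.14 (SE 0.24), a call lost without either Gli1-FLAG GNP or Ptc+/- GNP 2 (adjusted p up to 0.0583).

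Genes of mature granule neurons varied among the tumours far more than between tumours and GNPs. Of 11 measured, 0 rose and 0 fell in limma (2 and 1 at an unadjusted p below 0.05), with a median difference of 1.01. Without medulloblastoma 4, 5 of the 11 rose, and without medulloblastoma 2, 1 fell. The mean level of these 11 genes was 7.21 to 7.66 in GNPs and 8.78, 10.32, 8.26 and 6.24 in medulloblastomas 1 to 4. Medulloblastoma 2 was highest and medulloblastoma 4 lay below every GNP sample. Gabra6, a GABA receptor subunit of mature granule cells, was at 3.97 to 4.54 in GNPs, the level of silent genes, and at 8.11, 9.79, 6.77 and 4.41 in tumours (3.08, SE 1.03, adjusted p = 0.0675). Cbln3, a synaptic organizer made by granule cells, was at 5.65 to 5.81 in GNPs and at 9.25, 10.71, 7.62 and 5.02 in tumours. The 10 genes of largest spread among tumours, chosen for that spread, included Cbln3, the vesicular glutamate transporter gene Slc17a7 (8.58, 10.94, 9.88 and 4.61), the calcium sensor gene Vsnl1 (9.69, 11.30, 8.08 and 5.40), Chn2, Eno2 and Phyhip, all highest in medulloblastoma 2 and lowest in medulloblastoma 4. The homeobox gene Otx1 was at 10.79, 10.48 and 10.66 in medulloblastomas 1 to 3 and 4.54 in medulloblastoma 4, with GNPs at 8.86 to 9.06. Fabp7, a lipid-binding protein of radial glia, ran from 4.02 in medulloblastoma 3 to 10.91 in medulloblastoma 4, around the GNP values of 9.46 to 10.15.

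Purkinje cell genes went with the mature granule genes in medulloblastomas 1 and 2. Their mean level was 7.25 to 7.43 in GNPs and 8.12, 9.01, 6.86 and 6.53 in the tumours. Of 12 measured 0 rose and 1, Lhx5, fell, against 10.9% and 13.1% of all genes. Without medulloblastoma 3, 1 rose and 2 fell, and without medulloblastoma 2 or 4, 1 rose. Pcp2 was at 5.61 to 6.03 in GNPs and 8.96, 10.34, 5.76 and 6.34 in tumours, and Car8 was at 4.52 to 5.52 and 9.18, 10.90, 4.55 and 6.90. Both are defining Purkinje genes. Their part in the levels of neuronal genes in these 2 tumours was not tested. Synapse and ion channel genes had a mean level of 8.24 to 8.33 in GNPs and 8.11, 9.14, 8.62 and 7.47 in tumours.

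**Figure D2:**
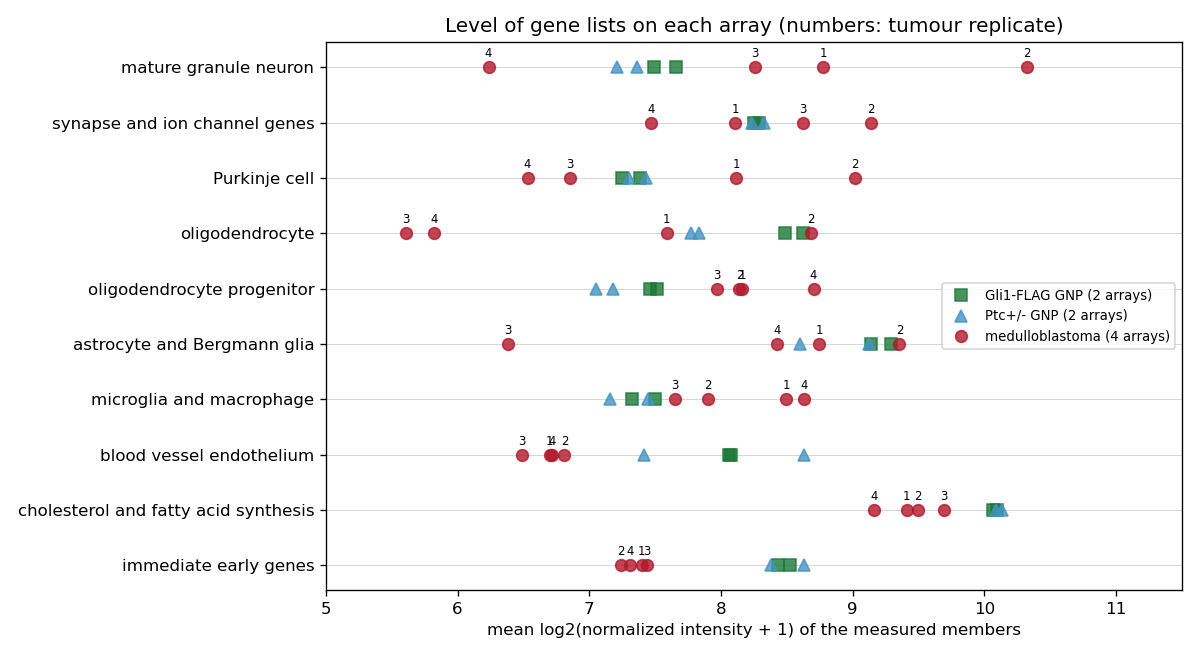
Mean level, log2(normalized intensity + 1), of the measured members of 10 gene lists on each array, with tumours numbered by replicate. Mature granule, synapse and Purkinje genes spread the tumours on both sides of the GNPs, while immediate early, cholesterol synthesis and endothelial genes lie lower on all 4 tumour arrays and microglial and oligodendrocyte progenitor genes higher.

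Glial and vascular markers moved in different directions. Of 7 measured oligodendrocyte progenitor markers 5 rose and 0 fell, against 10.9% and 13.1% of all genes (4 to 5 rises with 1 array left out). Their median was 1.10, with mean levels of 7.05 to 7.51 in GNPs and 7.97 to 8.70 in tumours. Olig1 was at 7.77, 7.55, 6.83 and 7.13 in GNPs and 9.23, 9.38, 8.56 and 10.31 in tumours (2.05, SE 0.35), and Olig2 rose by 1.49, both being transcription factors of the oligodendrocyte lineage. Pdgfra, the receptor for the product of Pdgfa, was at 8.77 to 8.99 and 9.76 to 10.53 (1.13, SE 0.19), and Bcas1 rose by 1.10. Cspg4 (0.91) lost its call without any 1 GNP array or medulloblastoma 1 (adjusted p up to 0.121). Myelin genes did not follow, since of 9 mature oligodendrocyte markers 0 rose and 1 fell, against 10.9% and 13.1% of all genes. Their mean level was 7.78 to 8.62 in GNPs and 7.59, 8.68, 5.61 and 5.82 in tumours. That 1 gene, Ugt8a (-1.73), lost its call without either Gli1-FLAG GNP, Ptc+/- GNP 1 or medulloblastoma 1 (adjusted p up to 0.0762), and without medulloblastoma 2, 3 fell.

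Of 16 microglia and macrophage markers 8 rose and 1 fell, against 10.9% and 13.1% of all genes. Their median was 0.95, with mean levels of 7.15 to 7.50 in GNPs and 8.50, 7.90, 7.65 and 8.63 in tumours. Without any 1 of the 4 GNP arrays 4 rose, without medulloblastoma 1 5 did, and without any other tumour 6 to 9 did. The complement genes C1qa, C1qb and C1qc rose by 1.61, 1.93 and 1.96, and Cd68, a lysosomal protein of phagocytes, by 1.98. C1qc was at 8.52 to 8.95 in GNPs and at 11.15, 10.46, 10.03 and 11.22 in tumours, with no overlap. The purinergic receptor gene P2ry12, typical of resting microglia, fell by 0.94, and the growth factor receptor gene Csf1r differed by -0.30 (SE 0.21). Lymphocyte markers were dim (mean level 4.78 to 4.96 in GNPs and 5.02 to 5.28 in tumours). Of these 1 of 9, Cd4, rose (0.77), near the 10.9% of all genes, or 2 without medulloblastoma 4. Of 15 interferon response and antigen presentation genes 0 rose and 0 fell in limma, with 3 higher and 1 lower at an unadjusted p below 0.05, and 2 rose without medulloblastoma 4.

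Of 15 endothelial markers 0 rose and 8 fell, against 10.9% and 13.1% of all genes, with a median of -1.31. The falls came to 5 without Gli1-FLAG GNP 1 and 6 to 10 without any other array. Kdr, the receptor for VEGF, was at 9.14, 9.04, 10.03 and 8.60 in GNPs and 6.09, 6.03, 6.12 and 6.91 in tumours (-2.91, SE 0.34), and the angiopoietin receptor gene Tek fell by 2.52. Pecam1 (-1.98) and Esam (-2.02), junction proteins of endothelium, also fell. The list mean was 8.06 and 8.08 in Gli1-FLAG GNPs, 8.63 in Ptc+/- GNP 1, 7.41 in Ptc+/- GNP 2 and 6.49 to 6.81 in tumours. Ptc+/- GNP 1 also had the highest mean level of fibroblast and meningeal markers (8.16, against 6.44 in Ptc+/- GNP 2 and 6.90 to 7.29 in tumours). Of these 1 of 12 fell, against 13.1% of all genes. Without Ptc+/- GNP 2, 5 of the 12 fell, and without Ptc+/- GNP 1, 2 rose and 0 fell. Of 14 astrocyte markers 0 rose and 2 fell, Aldh1l1 (-2.53) and Aqp4 (-3.08), near the 13.1% of all genes that fell. By direction alone 7 of them were higher and 7 lower in tumours. Their mean level in medulloblastoma 3 was 6.38 against 8.43 to 9.35 in the other tumours. Without medulloblastoma 2, 4 astrocyte markers fell, without medulloblastoma 3, 3 fell and 2 rose, and without medulloblastoma 1, 1 fell. The Aldh1l1 call was lost without any 1 GNP array (adjusted p up to 0.0779), and that of Aqp4 without any 1 GNP array, medulloblastoma 1 or medulloblastoma 4 (up to 0.114).

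Immediate early genes, which cells transcribe within minutes of a stimulus, fell in large part. Of 29 measured, 17 fell and 4 rose (median -0.92), against 13.1% and 10.9% of all genes, and 15 to 17 fell whichever array was left out. Promoters of 4 of the 17 are shown because a short cAMP response element core, TGACGT, lies in them. They are the 250 bases before the RefSeq start in build GRCm38.p6, read along the gene's strand, with the core on either strand in capitals (overlapping matches run together): Fos at chr12:85473640-85473889 (+), Atf3 at chr1:191183334-191183583 (-), Dusp1 at chr17:26508473-26508722 (-) and Btg2 at chr1:134079156-134079405 (-).
Fos: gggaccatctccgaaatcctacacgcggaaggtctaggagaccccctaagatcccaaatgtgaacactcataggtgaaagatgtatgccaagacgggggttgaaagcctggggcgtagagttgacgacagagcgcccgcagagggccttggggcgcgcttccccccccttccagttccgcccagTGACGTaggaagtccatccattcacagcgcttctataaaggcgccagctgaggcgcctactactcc
Atf3: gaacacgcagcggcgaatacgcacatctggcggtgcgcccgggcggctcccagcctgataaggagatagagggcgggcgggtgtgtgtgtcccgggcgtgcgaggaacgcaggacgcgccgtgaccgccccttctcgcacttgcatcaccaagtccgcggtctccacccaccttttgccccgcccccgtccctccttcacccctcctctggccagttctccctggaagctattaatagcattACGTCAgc
Dusp1: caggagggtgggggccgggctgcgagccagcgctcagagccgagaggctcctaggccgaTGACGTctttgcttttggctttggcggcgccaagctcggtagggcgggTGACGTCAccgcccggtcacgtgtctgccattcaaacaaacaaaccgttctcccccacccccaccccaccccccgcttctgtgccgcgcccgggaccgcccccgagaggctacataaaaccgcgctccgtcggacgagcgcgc
Btg2: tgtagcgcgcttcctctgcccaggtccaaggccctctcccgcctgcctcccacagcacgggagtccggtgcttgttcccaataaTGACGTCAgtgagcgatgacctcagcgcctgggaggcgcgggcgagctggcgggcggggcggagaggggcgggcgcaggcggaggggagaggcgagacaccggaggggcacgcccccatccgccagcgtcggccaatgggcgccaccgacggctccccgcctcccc
The core, searched on both strands, was in the promoters of 7 of 21 immediate early genes with a sequence (Fos, Atf3, Egr4, Nr4a3, Dusp1, Btg2 and Ccn1), among them Egr4, which rose. It was in 8.51% of the 11521 measured genes with a promoter, in 12.1% of 1482 that fell and in 6.3% of 1270 that rose. The motif was picked after the Fos promoter had been read, so these shares are a description. A match is a run of letters and says nothing of a factor being bound.

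Fos, a subunit of the AP-1 transcription factor, was at 11.14, 11.25, 11.01 and 11.32 in GNPs and at 6.90, 6.39, 7.58 and 6.71 in tumours (-4.29, SE 0.25, 19.5-fold lower, adjusted p = 0.000245). It was among the bright genes of every GNP sample and below the median of all rows, 7.50, in 3 of the 4 tumours. Atf3, a stress-induced partner of Jun, was at 8.91, 8.88, 9.19 and 9.65 in GNPs and 5.64, 5.06, 5.63 and 5.58 in tumours (-3.68, SE 0.18). Jun itself was at 11.27 to 11.40 and 8.28 to 9.12 (-2.61, SE 0.20, adjusted p = 0.000576). The zinc finger gene Egr1 was at 10.55 to 11.30 in GNPs and 7.51 to 9.09 in tumours (-2.72, SE 0.32). No tumour overlapped a GNP sample for any of these 4 genes.

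The Krüppel-like factor genes Klf4 (-2.97, SE 0.17), Klf2 (-2.81, SE 0.16) and Klf6 (-2.80, SE 0.13) fell in parallel, as did Gem, a small GTPase that restrains calcium channels (-3.43). The phosphatase gene Dusp1, which switches off MAP kinases, was at 11.52 to 11.76 and 9.14 to 9.71 (-2.16, SE 0.16), and the antiproliferative gene Btg2 was at 10.34 to 10.57 and 8.34 to 9.22 (-1.68, SE 0.20). The 4 rises were the Fos relatives Fosl1 (1.51, SE 0.14) and Fosl2 (1.55, SE 0.24), Ier5 (1.25) and Egr4 (1.06). The activity genes Arc (0.02, SE 0.18) and Nr4a1 (-0.14, SE 0.15) did not pass. Klf2 and Klf4 are known from endothelium too, and the 8 falls among 15 endothelial markers are given above; their part in these falls was not tested. Of 14 heat shock and unfolded protein response genes 6 fell and 1 rose (median -0.39), against 13.1% and 10.9% of all genes. The chaperone gene Hspa5 was at 11.495 to 11.95 in GNPs and 10.09 to 10.31 in tumours (-1.45, SE 0.12), Hspa1a fell by 2.53 and Hsph1 by 0.79, while Sesn2, a stress-induced inhibitor of growth signalling, rose by 1.201. GNPs were isolated from dissected cerebella and tumours were taken from adult mice, per the labels' protocols; handling and disease cannot be told apart in these genes.

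Enzymes of cholesterol synthesis fell, while the lipogenic regulator gene Srebf1 rose. Of 17 measured genes of cholesterol and fatty acid synthesis 8 fell and 1 rose, against 13.1% and 10.9% of all genes. Their median was -0.65, with 6 to 10 falls when 1 array was left out. Cyp51, which demethylates lanosterol, was at 9.76, 9.61, 9.79 and 9.73 in GNPs and at 7.68, 7.73, 8.23 and 7.95 in tumours (-1.83, SE 0.15, adjusted p = 0.000835). Msmo1, the next oxidase of that pathway, was at 10.68 to 10.81 and 8.76 to 9.34 (-1.65, SE 0.15), and Dhcr7, which makes cholesterol itself, at 9.84 to 9.99 and 8.44 to 9.01 (-1.27, SE 0.16). All 4 tumours were below all 4 GNP samples for each of the 3. Srebf1, whose product turns on lipid synthesis genes, was at 9.46 to 9.53 in GNPs and 10.56 to 11.08 in tumours (1.34, SE 0.14, adjusted p = 0.00171). Genes of fatty acid synthesis proper did not pass, with Fasn at -0.12 and Acaca at -0.15.

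Both D-type cyclin genes and inhibitor genes were among the cell cycle genes that rose. Of 18 cyclins, G1 kinases and their inhibitors 6 rose and 0 fell, against 10.9% and 13.1% of all genes. With 1 array left out 4 to 6 rose, and without medulloblastoma 4, 2 fell. Ccnd1, the D-type cyclin induced by mitogens, was at 9.80, 9.59, 10.12 and 10.16 in GNPs and 11.15, 11.003, 11.22 and 11.65 in tumours (2.52-fold, adjusted p = 0.00312). Its partner kinase gene Cdk6 was at 9.73 to 10.18 and 11.35 to 11.505 (1.42, SE 0.11, adjusted p = 0.000677), and Ccnd3 rose by 1.21. The other rises were inhibitors, Cdkn2a and Cdkn2b as above and Cdkn1a, which encodes p21 (0.93). Of 10 Myc family genes 6 rose and 0 fell (median 0.48), against 10.9% and 13.1% of all genes. Myc rose by 1.47 (8.48 to 9.28 in GNPs and 9.78 to 10.60 in tumours, SE 0.24). Mycn was at 10.24 to 10.42 in GNPs and 10.90 to 11.25 in tumours. Without either Gli1-FLAG GNP or Ptc+/- GNP 1 only 2 rose, without Ptc+/- GNP 2, medulloblastoma 1 or medulloblastoma 2 3 did, and 3 did with arrays centred on their medians. Mlx (0.54) lost its call without any 1 GNP array or medulloblastoma 1 (adjusted p up to 0.103), and Mnt (0.57) without either Gli1-FLAG GNP, Ptc+/- GNP 1, medulloblastoma 2 or medulloblastoma 3 (up to 0.111).

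Of 23 S phase genes 2 rose and 2 fell (median -0.04), against 10.9% and 13.1% of all genes, and the histone mRNA binding gene Slbp was 1 of the falls (-1.23). Without medulloblastoma 2, 4 rose and 1 fell, without medulloblastoma 4, 1 rose and 4 fell, and without any other array 0 to 1 rose and 1 fell. Of 28 mitosis genes 0 rose and 3 fell (median -0.23), against 10.9% and 13.1% of all genes. At an unadjusted limma p below 0.05, 1 was higher and 8 were lower. Leaving out medulloblastoma 4 gave 6 falls and leaving out any other array gave 0. Their mean level was 9.40 to 9.64 in GNPs and 9.46, 8.95, 9.19 and 9.65 in tumours, lowest in medulloblastoma 2. Top2a, a topoisomerase of dividing cells, was at 10.82 to 11.16 and 10.20 to 10.81 (-0.54, SE 0.16), a call lost on leaving out any array but medulloblastoma 4 (adjusted p up to 0.131). Of 20 genes of the p53 and apoptosis list 5 rose and 5 fell, against 10.9% and 13.1% of all genes. These counts were 2 and 3 without Gli1-FLAG GNP 1, 4 and 3 without Gli1-FLAG GNP 2, 3 and 4 without Ptc+/- GNP 1, 3 and 3 without Ptc+/- GNP 2, and 6 and 7 without medulloblastoma 3. Phlda3, a p53 target that blocks Akt, was at 5.79 to 5.95 in 3 GNP samples, at 6 in Gli1-FLAG GNP 2 and at 8.38, 8.30, 6.96 and 8.39 in tumours (2.11, SE 0.33, adjusted p = 0.0064), whereas Plk2 fell by 1.61, the survival gene Mcl1 by 0.93 and the p53 ligase gene Mdm2 by 0.74.

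Growth factor genes changed in both directions. Of 25 measured genes of receptor tyrosine kinase signalling 6 rose and 6 fell, against 10.9% and 13.1% of all genes. Without Gli1-FLAG GNP 1 these counts were 3 and 3, without Gli1-FLAG GNP 2 or Ptc+/- GNP 1 4 and 3, and without any other array 4 to 7 and 4 to 7. The neurotrophin-3 receptor gene Ntrk3 was at 8.42, 8.30, 8.84 and 8.72 in GNPs and 10.90, 11.16, 10.93 and 10.70 in tumours (2.35, SE 0.13, adjusted p = 0.000243). Etv5, an ETS factor induced by receptor kinases, rose by 1.90 and the IGF carrier gene Igfbp3 by 1.43, while Erbb2 fell by 1.19. Of 23 BMP and TGF-beta genes 8 fell and 0 rose, against 13.1% and 10.9% of all genes. At an unadjusted limma p below 0.05, 12 were lower and 2 higher. Without any 1 of the 4 GNP arrays 5 fell, and with arrays centred on their medians 2 rose. The ligand gene Bmp5 was at 8.54 and 8.43 in the precursors with the transgene, 7.57 and 7.34 in those of Ptc+/- mice and 4.31 to 6.03 in tumours (-2.93, SE 0.39), its receptor gene Bmpr1b fell by 1.5003 and the feedback inhibitor gene Smad7 by 1.95. With the target gene Msx2, these falls held a ligand, a receptor and targets of the pathway. They were named for their low p, and 15 of the 23 genes did not pass.

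Of 17 Notch pathway genes 4 rose and 3 fell, against 10.9% and 13.1% of all genes. Without either Gli1-FLAG GNP or Ptc+/- GNP 1 only 1 rose, and without Ptc+/- GNP 2 2 did. The fringe genes on the list, Lfng (1.505, SE 0.15) and Mfng (1.39, SE 0.29), whose enzymes modify Notch, rose. The ligand gene Dll1 (-1.99) and the effector gene Hey2 (-2.03) fell. The Mfng call was lost without either Gli1-FLAG GNP or Ptc+/- GNP 1 (adjusted p up to 0.0589). Of 19 Wnt pathway genes 3 rose and 4 fell, not far from the shares of all genes, 10.9% and 13.1%. Without either Gli1-FLAG GNP or Ptc+/- GNP 1 only 1 rose, and without medulloblastoma 4 5 did. The ligand gene Wnt5a fell by 2.07 from 7.13 to 7.68 in GNPs to 4.95 to 5.39 in tumours, the factor gene Tcf7l2 by 1.47 and Dkk3 by 1.12, while the receptor gene Fzd1 rose by 0.76.

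Genes of axon guidance and of the extracellular matrix fell more often than they rose. Of 29 guidance genes 3 rose and 10 fell (median -0.46), against 10.9% and 13.1% of all genes. The falls came to 6 without Gli1-FLAG GNP 1 and 7 to 12 without any other array. Beside the rises of Sema3e, Epha8 and Sema3f (1.72), the ligand genes Efnb2 (-2.55, SE 0.24) and Slit2 (-2.04, SE 0.13) fell. Slit2 was at 6.54 to 6.76 in GNPs and 4.49 to 4.84 in tumours. Unc5c, a netrin receptor of migrating granule cells, was at 10.30 to 10.55 in GNPs and at 7.21, 8.40, 9.08 and 6.32 in tumours (-2.68, SE 0.56). Of 30 matrix genes 3 rose and 13 fell (median -0.62), against 10.9% and 13.1% of all genes. The falls came to 7 without Gli1-FLAG GNP 1, 8 without Gli1-FLAG GNP 2 and 10 to 12 without any other array. Tenascin gene Tnc was at 9.35 to 9.68 and 5.54 to 7.80 (-2.87, SE 0.43), the basement membrane gene Nid1 at 8.51 to 9.34 and 6.56 to 7.29 (-2.01, SE 0.24), and Col5a2 at 6.06 to 6.58 and 4.23 to 4.35 (-2.03, SE 0.13). Apart from Smoc1, the brain proteoglycan gene Bcan (1.15) and the laminin gene Lama1 (0.80) rose. Endothelium makes basement membrane, and its markers fell too, as given above; their part in the matrix falls was not tested.

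Patterning transcription factors and chromatin genes changed in both directions. Of 23 patterning genes 6 rose and 4 fell, against 10.9% and 13.1% of all genes. Their median of -0.05 became 0.24 with arrays centred on their medians. Lhx2, a LIM homeobox gene of the forebrain and eye, was at 6.28 to 6.77 in GNPs and 8.10 to 8.87 in tumours (2.11, SE 0.22), and En1, which patterns the midbrain and cerebellum, was at 7.18 to 7.76 and 4.68 to 5.54 (-2.39, SE 0.22). Of 21 chromatin regulators 5 rose and 4 fell, against 10.9% and 13.1% of all genes. These counts came to 1 and 0 without Gli1-FLAG GNP 1, 2 and 1 without Gli1-FLAG GNP 2 or Ptc+/- GNP 1, 3 and 1 without Ptc+/- GNP 2, and 3 and 4 without medulloblastoma 1. Apart from Prmt8, Hmga2 (0.96) lost its call without either Gli1-FLAG GNP or Ptc+/- GNP 1 (adjusted p up to 0.0698), and the X-linked demethylase gene Kdm6a (-0.99) without Gli1-FLAG GNP 1 or Ptc+/- GNP 1 (up to 0.0596). Igf2bp3, an oncofetal RNA-binding protein, fell by 1.88. Of 15 glycolysis genes 2 rose and 1 fell, near the shares of all genes, 10.9% and 13.1%. Without any 1 of the 4 GNP arrays 1 rose, and without medulloblastoma 4 6 did. Hk2, the hexokinase that Sonic hedgehog induces in GNPs, was at 7.19 to 7.75 in GNPs and at 9.44, 9.19, 10.85 and 10.68 in tumours (2.59, SE 0.39, 6.03-fold, adjusted p = 0.00571). Hk2 also lies on chromosome 6. Of 11 ribosomal protein genes 3 rose and 0 fell, against 10.9% and 13.1% of all genes. There were 0 rises without either Gli1-FLAG GNP, 1 without Ptc+/- GNP 1 and 5 without medulloblastoma 2.

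**Figure D3:**
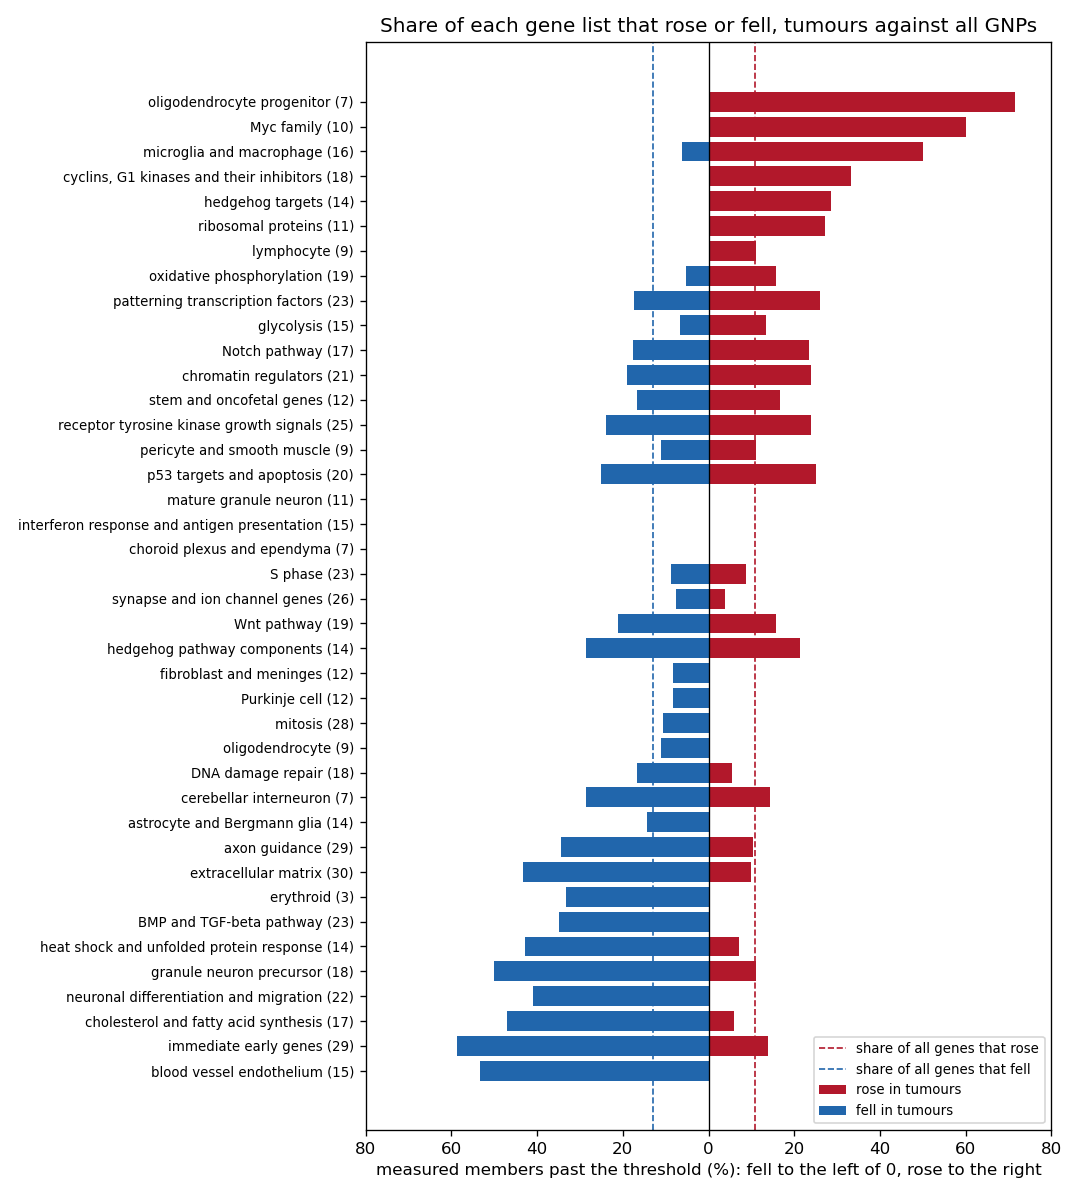
Share of measured members of each gene list that rose (right of 0) or fell (left of 0) in tumours, with the number of measured members in brackets. Dashed lines mark the shares of all genes, 10.9% up and 13.1% down; oligodendrocyte progenitor and Myc family genes reach furthest on the right and immediate early and endothelial genes furthest on the left.

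Calls were spread unevenly over the chromosomes. Of 14313 genes with a chromosome in assembly GRCm38.p6, 10.9% rose and 13.1% fell. On chromosome 17, 145 of 661 genes rose (21.9%) and 40 fell (6.05%), and on chromosome 6, 132 of 787 rose (16.8%) and 35 fell (4.45%). For genes at or above the median level, the median difference from the GNP mean was taken on each array. On chromosome 6 (361 genes) it was 0.25, 0.17, 0.59 and 0.29 in medulloblastomas 1 to 4, against -0.01 to 0.02 in GNPs. On chromosome 17 (368 genes) it was 0.42, 0.33, 0.06 and 0.31, against -0.06 to 0.04 in GNPs. All 4 tumours were above all GNP arrays on both chromosomes, with medulloblastoma 3 highest on chromosome 6 and lowest on chromosome 17. In medulloblastoma 3, 88.1% of these chromosome 6 genes lay above their GNP mean, and in medulloblastoma 1, 82.1% of those on chromosome 17.

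The shift was also read along both chromosomes. With the genes of chromosome 6 split in order into 4 stretches, the medians in medulloblastoma 3 were 0.58, 0.63, 0.61 and 0.53. In medulloblastoma 2 they were 0.099, 0.15, 0.199 and 0.195, the first beside 0.089 in Ptc+/- GNP 1. On chromosome 17 those in medulloblastoma 1 were 0.44, 0.49, 0.42 and 0.33, and those in medulloblastoma 4 were 0.45, 0.38, 0.30 and 0.13. Those in medulloblastoma 3 were 0.073, 0.097, 0.111 and 0.008, and the last lay within the GNP range of -0.029 to 0.04. On the other chromosomes the tumour medians lay between -0.39 and 0.11. Chromosome X was lowest, at -0.21, -0.39, -0.22 and -0.25, with 23% of 473 genes falling and 6.77% rising, followed by chromosome 12 at -0.17, -0.26, -0.24 and -0.24. For these genes at or above the median level, all chromosomes other than 6, 7, 15 and 17 lay below 0 in every tumour. Taken over all chromosomes, such genes were already at -0.02, -0.08, -0.04 and -0.07 in medulloblastomas 1 to 4. With dim genes included, chromosomes 11 (0.03 to 0.05) and 19 (0.001 to 0.035) were above 0 in every tumour, so small negative medians depend on that filter. Chromosome 7 was above 0 in every tumour, by 0.05 to 0.11. Centring arrays on their medians moved the genes of an array together. In medulloblastoma 2, chromosome 6 was then at -0.02 and chromosome 17 at 0.13, while chromosomes 1 and X were at -0.37 and -0.56. This view was chosen after the data were seen and is a description. DNA copy number was not measured here.

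**Figure D4:**
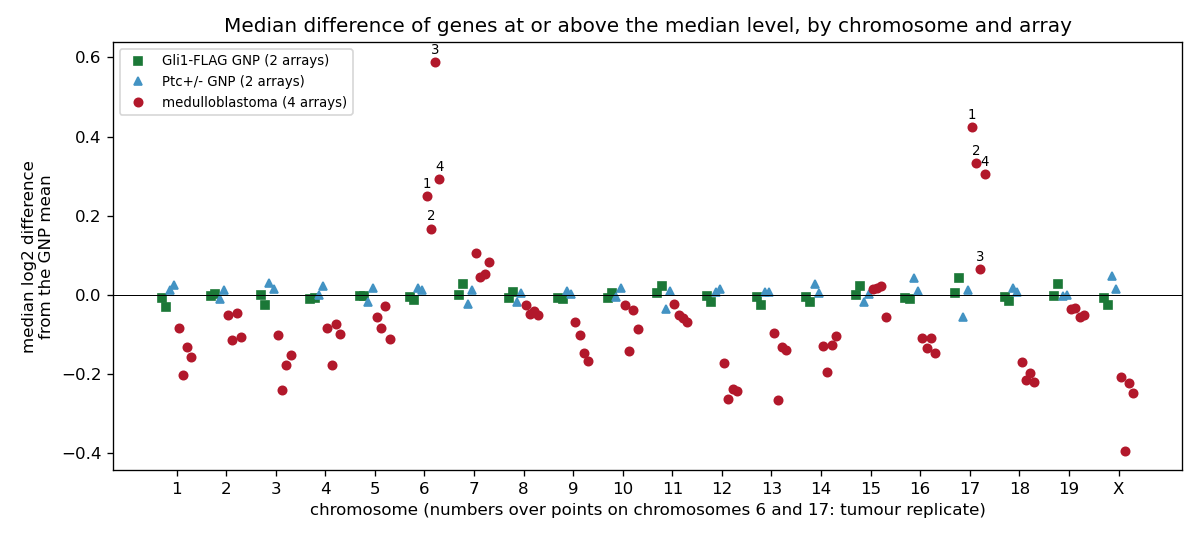
Median log2 difference from the GNP mean of genes at or above the median level, by chromosome, for each of the 8 arrays, with tumours on chromosomes 6 and 17 numbered by replicate. GNP arrays lie near 0 by construction, and tumours stand above them on chromosomes 6 and 17, medulloblastoma 3 at 0.59 on chromosome 6.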

How the data were processed

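The deposited series table holds a linear intensity of every transcript cluster for each of 8 arrays, as the authors deposited it, and the submitters' processing notes name the build mm8. How background was corrected, probes were summarized and arrays were scaled is not stated in the sources used. Array medians differed by a ratio of 2.84, so the deposited intensities were quantile normalized over the 8 arrays, values below 0 were set to 0, and log2(intensity + 1) was taken. Such differences understate changes of dim genes, no detection call accompanies the values, and precision is limited by having few arrays. Of 16317 rows, 14551 had 1 gene symbol in the platform annotation, 1146 had several and 620 were unnamed here; 14517 were found in a gene table of GRCm38.p6, and 0 symbols changed. A gene is its brightest row.

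Groups came from the labels. limma 3.58.1 in R 4.3.3 fitted 3 group means to the 8 arrays (lmFit, contrasts.fit, eBayes; 5 residual and 2.45 prior degrees of freedom), with Benjamini-Hochberg adjustment over all rows. Same-numbered replicates deviated together with correlations of -0.07 to 0.01. With 2 arrays per GNP genotype, whose deviations mirror each other, this cannot show whether the numbers pair the samples. The main fit did not use them.

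The comparison and 41 gene lists were chosen with earlier results of these data known. Named were the 15 largest rises and 15 largest falls past the threshold without overlap and with the brighter group at or above the median level, in each list the 4 members of lowest p, Gli1, Ptch1, Gli2, Gli3, Hhip, Mycn, Ccnd1, Ccnd2 and Sfrp1 (Gli2 not measured here; 1 further gene of the rule is not reported here), the 10 genes of largest SD among tumours, genes called between GNP genotypes, and the 10 lowest p-values; clones and gene models without a name were skipped. Other list members named were chosen after their values were seen, and arrays were not left out for them singly. Alternatives were other scalings, a pseudocount of 16, filters, weights, a replicate block, 2 groups of 4 arrays and each array left out. The fit was tested on simulated data. Promoters are RefSeq's, from 250 bases before each start.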

Additional observations from a re-analysis of the deposited data

Results flagged for a closer look

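Among 205 values tested, 13 had 1 tumour standing far from the other 3 (gap over range above Dixon's critical value), where chance alone would single out about 5%. That number is close to chance, and some of the genes, Otx1 among them, had been picked for their spread among tumours, so the values are given as a description. Medulloblastoma 4 was alone at 4.54 for Otx1 (others 10.48 to 10.79) and at 3.38 for Tfap2a (others 5.09 to 5.33), and alone on the high side at 7.07 for the interferon regulator gene Irf7 (others 5.12 to 5.45), 6.03 for the immunoproteasome gene Psmb8 (others 4.63 to 4.73), 7.97 for Hmga2 (others 7.09 to 7.22), 6.91 for Kdr (others 6.03 to 6.12) and 4.35 for Col5a2 (others 4.23 to 4.25). Its median difference on chromosome 15 was -0.06, with the others at 0.01 to 0.02. Medulloblastoma 2 was lowest at 5.06 for Atf3 (others 5.58 to 5.64) and at 7.31 for the helicase gene Blm (others 7.95 to 8.01), whose call against the GNPs was lost without any 1 GNP array (adjusted p up to 0.0848). Medulloblastoma 3 was lowest at 3.44 for Foxc2 (others 4.63 to 4.84) and at 6.59 for the plasma protein gene Vtn (others 7.97 to 8.15). Medulloblastoma 1 was highest at 7.18 for Klf2 (others 6.82 to 6.84). For Atf3, Kdr, Klf2 and Col5a2 the distance was small beside the fall from the GNPs, whereas for Tfap2a it was not.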

How the results depend on the processing

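For tumours against all GNPs, tumours against Ptc+/- GNPs, tumours against Gli1-FLAG GNPs and Gli1-FLAG GNPs against Ptc+/- GNPs, the 8 arrays gave 3812, 2687, 1677 and 0 calls. A fit with replicate block, for which medulloblastomas 3 and 4 have no partner and drop out, was run: tumours against all GNPs had 2931 calls (2238 of the 3812 among them), tumours against Gli1-FLAG GNPs 1066 and Gli1-FLAG GNPs against Ptc+/- GNPs 1; the block kept 115 of 139 named calls. Array weights per group gave 3566 for tumours against Gli1-FLAG GNPs and 3 for Gli1-FLAG GNPs against Ptc+/- GNPs. A 2-fold minimum gave 1234, 1252 and 882 for tumours against all, Ptc+/- and Gli1-FLAG GNPs. Cyclic loess, the filter on dim rows and eBayes with trend and robust settings each gave 1 for Gli1-FLAG GNPs against Ptc+/- GNPs. With 1 array left out, tumours against all GNPs had 1300 to 3987 calls, tumours against Ptc+/- GNPs 128 to 2898, tumours against Gli1-FLAG GNPs 62 to 1980 and Gli1-FLAG GNPs against Ptc+/- GNPs 0 to 4. The lowest were without Gli1-FLAG GNP 1 for tumours against all GNPs and against Gli1-FLAG GNPs and without Ptc+/- GNP 1 for tumours against Ptc+/- GNPs, where the genotype is left with 1 array that is assumed to vary like the other groups. Arrays centred on their medians gave 4370 calls for tumours against all GNPs, 2422 up and 1948 down (3183 shared), with the median of all rows at 0.10, and 1713 up and 1352 down for tumours against Ptc+/- GNPs, with that median at 0.13. Other settings left tumours against all GNPs between 3199 and 4248 calls. Of 139 named calls 126 remained with median centring, 135 with cyclic loess and 136 with 2 groups of 4 arrays. An exact two-sided permutation p of 0.0286, the smallest that 4 against 4 allows, was found for 136. Every gene without overlap has that p, and genes were named for no overlap or low p, so it is no separate check. Direction turned only for uncalled genes: with the block Foxj1 (0.0242), Hhip (-0.24), Mbp (1.25), Ptch1 (-0.22) and Slc17a7 (1.06); with median centring Foxj1 (0.0416) and Slc4a1 (0.0718); and with 1 array left out Hhip (-0.0017 to 0.7729), Ptch1 (-0.029 to 0.2104), Slc17a7 (-1.0263 to 1.0897) and Otx1 (-0.3632 to 1.7126). The cause was not tested.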
